A study of Mus musculus with 7 samples.

Results

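A set of 10 genes of the endoplasmic reticulum (ER), chosen by name, is described here in mouse liver: the degradation genes Derl3 and Herpud1, the chaperone genes Hspa5, Hsp90b1, Hyou1, Dnajb9 and Sdf2l1, the oxidoreductase gene Pdia4, the ER stress-inducible gene Creld2, and the transcription factor gene Xbp1. Their probes were found through the RefSeq accession that the array files give for each probe. All 10 had a probe, among 32451 genes on the array. The samples were livers of male mice labelled C57/BJ, aged 26 weeks, 3 on a high-fat diet (HFD, diet D12331) and 4 on control chow. Both diets began at 6 weeks of age and lasted 20 weeks. Total RNA labelled with Cy3 was hybridised to 1-colour Agilent arrays, 1 per sample, and the small number of arrays limits the precision. The labels do not say which animal each sample came from, and the p-values below measure only the spread between these samples.

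Proteins that enter the ER are folded there by chaperones and disulfide isomerases, and those that fail to fold are drawn back to the cytosol and degraded by the proteasome, a route called ER-associated degradation. When unfolded proteins build up, the sensors IRE1, PERK and ATF6 start the unfolded protein response, in which the spliced form of XBP1 and the cleaved form of ATF6 raise transcription of chaperone and degradation genes. Hepatocytes secrete most plasma proteins and carry an extensive rough ER.

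The files hold levels of different reach for the diets. A deposited table gives log2 values of 1615 probes, standing for 1488 genes, for all 7 samples. In these probes the HFD and chow groups never overlapped, so the table had been selected on the diet difference, and being in it already means that a gene differed between these samples. Its p-values are not independent evidence. Across probes, the Pearson correlation between scanner signal and deposited column was 0.9999 for each of the 3 HFD arrays. For the 4 scanner files labelled chow it lay between 0.580 and 0.589. Albumin (Alb), the main plasma protein made by hepatocytes, was well above background on all 3 HFD arrays and on 0 of the 4 arrays labelled chow. The same held for Apoa1, Ahsg and Cps1, while every HFD array detected all 19 hepatocyte markers well above background. The markers other than these 4 were well above background on arrays labelled chow, Rbp4 on 1, Ttr on 3 and the rest on all 4. With signals scaled to each array, all 19 were lower on every array labelled chow than on any HFD array. The comparison of the diets therefore uses the table, and genes outside it have HFD levels alone. The HFD arrays lay on 3 slides scanned on 1 day. The scan day behind the chow columns is unknown, so scan day and diet cannot be told apart. HFD replicate 1 had a negative control signal of 46.9, against 29.9 and 30.8 on the other HFD arrays.

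The promoter windows of 9 of the 10 genes were available from RefSeq (build GRCm38.p6), each running from 250 bases before to 50 bases after the annotated start. They were searched on both strands for the ER stress response element ERSE, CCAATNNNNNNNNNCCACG, to which ATF6 binds together with the factor NF-Y, for the related ERSE-II (ATTGG, then 1 base of any kind, then CCACG), and for ACGTGG, the core of the element that XBP1 binds. The 4 windows shown are those of Derl3 and Dnajb9, the genes with a diet comparison, and of Hspa5 and Herpud1, one with ERSE and one with ERSE-II. Capitals mark the matches. The windows are written 5′ to 3′ on the strand of the gene, and a match on the opposite strand is quoted below as it reads on that strand.

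Derl3, chr10:75893148-75893447, plus strand: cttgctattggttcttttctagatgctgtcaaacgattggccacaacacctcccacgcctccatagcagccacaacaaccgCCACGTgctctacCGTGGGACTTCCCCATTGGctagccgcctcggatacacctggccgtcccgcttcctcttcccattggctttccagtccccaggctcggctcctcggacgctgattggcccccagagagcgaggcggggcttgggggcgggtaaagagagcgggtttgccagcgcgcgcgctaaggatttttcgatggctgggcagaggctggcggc
Dnajb9, chr12:44210019-44210318, minus strand: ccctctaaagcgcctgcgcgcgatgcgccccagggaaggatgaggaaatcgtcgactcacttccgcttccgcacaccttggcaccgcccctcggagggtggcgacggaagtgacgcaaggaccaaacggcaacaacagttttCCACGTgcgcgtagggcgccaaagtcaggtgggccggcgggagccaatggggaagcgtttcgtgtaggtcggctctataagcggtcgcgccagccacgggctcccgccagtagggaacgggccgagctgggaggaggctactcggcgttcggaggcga
Hspa5, chr2:34771840-34772139, plus strand: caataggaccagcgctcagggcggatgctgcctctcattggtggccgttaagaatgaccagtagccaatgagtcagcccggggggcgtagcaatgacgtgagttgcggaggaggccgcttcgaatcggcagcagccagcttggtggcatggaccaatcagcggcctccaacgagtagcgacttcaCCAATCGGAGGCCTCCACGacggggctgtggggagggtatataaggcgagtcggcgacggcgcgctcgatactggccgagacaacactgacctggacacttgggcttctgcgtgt
Herpud1, chr8:94386179-94386478, plus strand: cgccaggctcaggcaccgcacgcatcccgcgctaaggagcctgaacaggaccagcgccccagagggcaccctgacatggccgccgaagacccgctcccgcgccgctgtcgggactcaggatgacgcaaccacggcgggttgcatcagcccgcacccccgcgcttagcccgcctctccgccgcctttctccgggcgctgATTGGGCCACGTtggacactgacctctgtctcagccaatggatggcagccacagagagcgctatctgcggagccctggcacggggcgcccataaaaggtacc

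ERSE was found in the windows of 4 of the 9 genes, Derl3, Hspa5, Creld2 and Hsp90b1, and in 39 of all 32851 windows in the RefSeq set (0.119%). In Hspa5 it ran from 65 to 47 bases before the start, as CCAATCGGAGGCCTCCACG. In Derl3 it lay on the opposite strand, from 156 to 138 bases before the start, as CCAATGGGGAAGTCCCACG. In Creld2 it also lay on the opposite strand, as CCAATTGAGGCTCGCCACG from 126 to 108 bases before the start. Hsp90b1 was the only one of the 9 with a pair of matches, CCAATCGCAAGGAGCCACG on the gene's strand (212 to 194 bases before the start) and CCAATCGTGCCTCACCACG on the opposite strand (ending 89 bases before the start). ERSE-II was found in Herpud1 alone of the 9, 52 to 42 bases before the start, and in 12 of all windows (0.0365%). The core ACGTGG was found in Herpud1, where it overlaps ERSE-II, in Derl3 (169 to 164 bases before the start) and in Dnajb9 (108 to 103), and in 8.31% of all windows. No match was found in the windows of Xbp1, Sdf2l1 and Pdia4, which says only that these letters are not in these windows. Of the 24 genes with ERSE on the array, 18 were well above background on all HFD arrays, beside 54.3% of all genes on the array. The 18 were these 4, the ER genes Calr, Canx, Dnajc3, Pdia6, Ero1b, Syvn1 and Alg12, and Acacb, Acnat2, Hnrnpa3, Pan2, Spats2l, Xlr3b and Zfp57. Of the 24, 4 were in the deposited table, namely Derl3, Syvn1, Acacb and Acnat2, and 3 of these were lower in HFD. Of all genes on the array, 4.59% are in the table and 2.12% are in it as lower. All genes on the array, here and for the 54.3%, include those known by accession only, whereas the ERSE genes are named. Of the 13079 named genes well above background on all 3 HFD arrays, 8.49% are in the table and 3.70% are in it as lower. The few genes with ERSE allow a description only. All matches are descriptions of letters and show no binding.

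**Figure D1:**
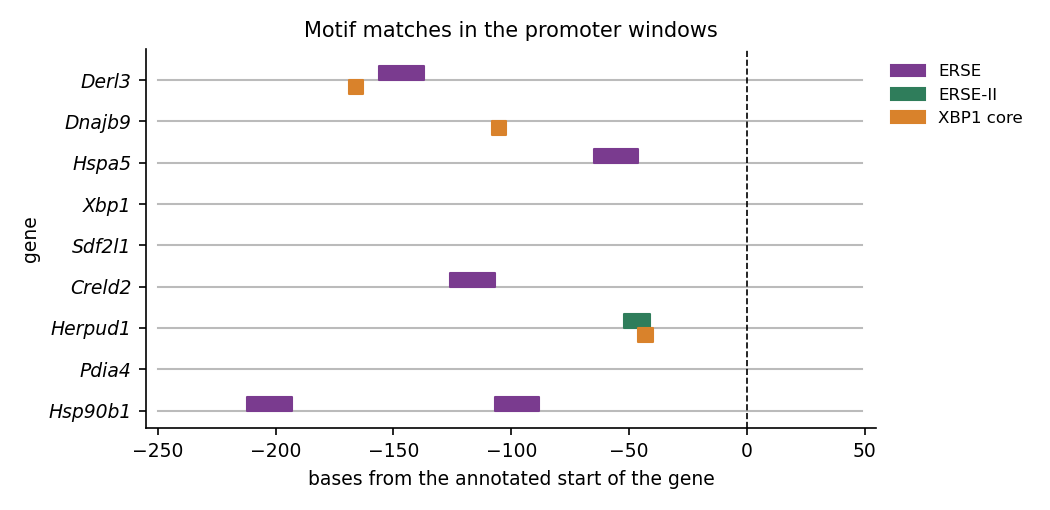
Positions of the matches in the promoter windows of 9 genes. The horizontal axis gives bases from the annotated start (dashed line), grey lines are the searched windows, bars above a line are ERSE or ERSE-II and bars below it the XBP1 core; Derl3, Hspa5, Creld2 and Hsp90b1 hold ERSE, and Xbp1, Sdf2l1 and Pdia4 hold no match.

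The question of the design was how HFD changed liver gene expression. Of the 10 genes, 2 were in the table, Derl3 and Dnajb9, and both fell in HFD. Of all genes on the array, 4.59% are in the table and 2.12% are in it as lower in HFD. The table was fitted with a limma model, with Benjamini-Hochberg adjustment over all 32451 genes. At an adjusted p under 0.05, 1.89% of genes on the array were called, 1.05% as higher and 0.832% as lower, beside the 2 of 10 here. The 10 are all named genes well above background on every HFD array. Of 13079 such genes, 8.49% are in the table and 3.70% are in it as lower, with 267 called higher and 184 called lower. Within the table, where all genes have groups that do not overlap and 46.2% are lower in HFD, 41.1% were called, 23.0% as higher and 18.1% as lower. The 10 genes were chosen with these results known, so these shares are no test. The liver samples hold several cell types, and fewer cells of a type and less RNA per cell cannot be told apart.

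Derl3 encodes derlin-3, an ER membrane protein of the channel through which unfolded glycoproteins leave for degradation. Its deposited log2 values were 9.91, 9.17 and 10.23 in HFD replicates 1, 2 and 3, against 12.39, 11.60, 11.60 and 11.29 in chow replicates 1 to 4. The highest HFD sample lay 1.06 below the lowest chow sample, and chow replicate 1 was the highest of all. Means were 9.77 ± 0.54 (SD, n = 3) in HFD and 11.72 ± 0.47 (SD, n = 4) in chow, a log2 difference of -1.95 (SE 0.33), or 3.86-fold lower in HFD (adjusted p = 0.0427 in limma). The difference was larger than the SD of either group, which selection on groups that do not overlap makes likely.

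Dnajb9 encodes ERdj4, a J-domain partner of the chaperone BiP that also holds the sensor IRE1 inactive. Its brighter probe had 10.90, 10.76 and 10.98 in HFD replicates 1 to 3, against 12.05, 12.05, 11.54 and 11.77 in chow replicates 1 to 4. The groups were 0.56 apart at their nearest samples, and the HFD samples lay closer together than the chow samples. The means of 10.88 ± 0.11 (SD, n = 3) in HFD and 11.85 ± 0.25 (SD, n = 4) in chow differ by -0.97 on the log2 scale (SE 0.15), or 1.96-fold lower in HFD (adjusted p = 0.0372 in limma). A dimmer probe of Dnajb9 was also in the table, with 7.628, 7.955 and 7.996 in HFD, against 9.08, 8.93, 8.65 and 8.53 in chow. Its difference was -0.94 (SE 0.17), so the probes of this gene gave similar sizes. Both calls rest on all 7 samples together. Without any 1 of them, in fits with fewer samples, the adjusted p was 0.0527 to 0.147 for Derl3 and 0.0675 to 0.149 for Dnajb9. The difference was then 3.14-fold to 4.52-fold lower for Derl3 and 1.87-fold to 2.11-fold lower for Dnajb9. Its direction could not reverse in these fits for any gene of the table, since the groups do not overlap.

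**Figure D2:**
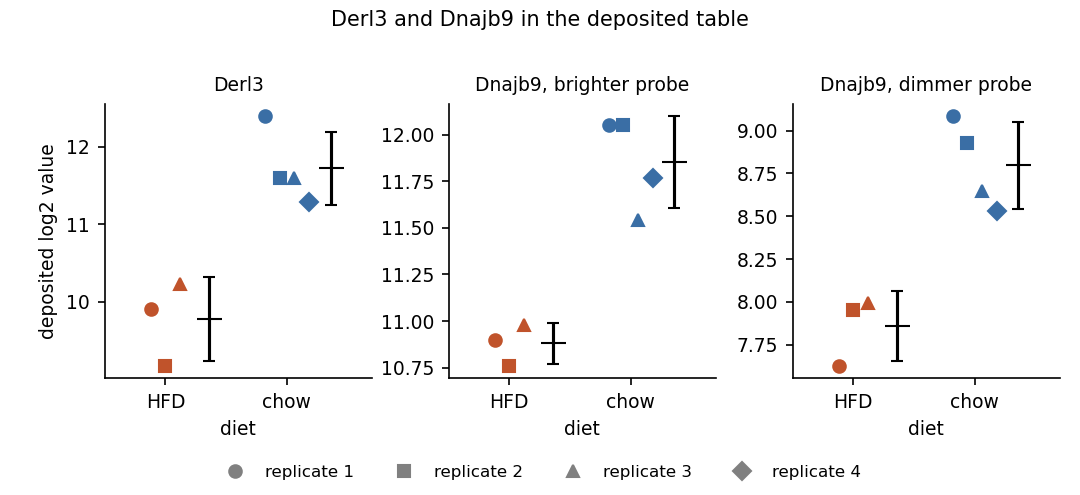
Deposited log2 values of Derl3 and of both Dnajb9 probes in each sample, with HFD left of chow. Symbols give the replicate number and black bars the mean and SD (n = 3 HFD, n = 4 chow); each panel has its own vertical axis, which does not start at 0, and no HFD sample reaches the lowest chow sample.

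The remaining 8 genes, Hspa5, Xbp1, Sdf2l1, Creld2, Herpud1, Hyou1, Pdia4 and Hsp90b1, were not in the table. No chow level of theirs is used here. Since the rule by which the table was selected is not given, their absence from it does not show that they were the same on both diets.

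The wider ER machinery showed the same side of the diet difference wherever it was in the table. Of 62 genes in 4 lists, which share 9 genes with the 10 above, 9 were in the table, all 9 lower in HFD. By function these were 2 of 15 chaperones and cochaperones, 2 of 10 oxidoreductases, 3 of 20 genes of ER-associated degradation, and 2 of 17 genes of translocation and signal peptide processing. Over the table as a whole 687 of 1488 genes were lower. Almost all of the machinery was expressed, with 61 of 62 genes well above background on all 3 HFD arrays. Among the 13079 named genes detected in that way, 8.49% were in the table and 3.70% were in it as lower, against 14.5% of the 62 ER genes. Derl3 and Dnajb9 are counted in that 14.5%. Without the genes shared with the 10 above, 7 of 53 ER genes (13.2%) were in the table, all 7 lower in HFD. The lists were compiled with earlier results of these data known, and these shares are descriptions.

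Of these 9 genes, 3 passed the test: Derl3, Dnajb9 and Pdia5, a protein disulfide isomerase. Of the 53 ER genes outside the 10, Pdia5 was thus the 1 called. Among the 13079 detected named genes, 184 were called lower, so this count is near the background. Pdia5 had 10.98, 11.44 and 11.68 in HFD, against 12.70, 12.71, 12.93 and 13.08 in chow. All 3 HFD samples lay at least 1.02 below the lowest chow sample, and the gene fell 2.81-fold in HFD (log2 difference -1.49, SE 0.19, adjusted p = 0.0255 in limma). Without 1 sample its call held in 1 of 7 fits, with an adjusted p between 0.0265 and 0.116. Syvn1 encodes HRD1, the ubiquitin ligase at the centre of ER-associated degradation. It had 13.93, 13.77 and 14.39 in HFD, against 14.89, 15.12, 15.76 and 15.03 in chow. Its log2 difference of -1.17 (SE 0.24) did not pass (adjusted p = 0.0641). Txndc11, a thioredoxin-domain protein of the ER, had a log2 difference of -1.04 (SE 0.20) and also missed the threshold (adjusted p = 0.0529). The 4 remaining genes differed by less than 1 on the log2 scale. Selenos, which brings the ATPase p97 to the ER membrane, differed by -0.69 (SE 0.14, adjusted p = 0.0570). Spcs2, a subunit of signal peptidase, differed by -0.60 (SE 0.12, adjusted p = 0.0546). Hspa13, an ATPase of the Hsp70 family, differed by -0.57 (SE 0.13, adjusted p = 0.0877), and Sec63, the J-domain protein of the translocon, by -0.51 (SE 0.11, adjusted p = 0.0687). The values of Sec63 in chow spanned only 10.39 to 10.44, against 9.73, 9.87 and 10.10 in HFD.

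**Figure D3:**
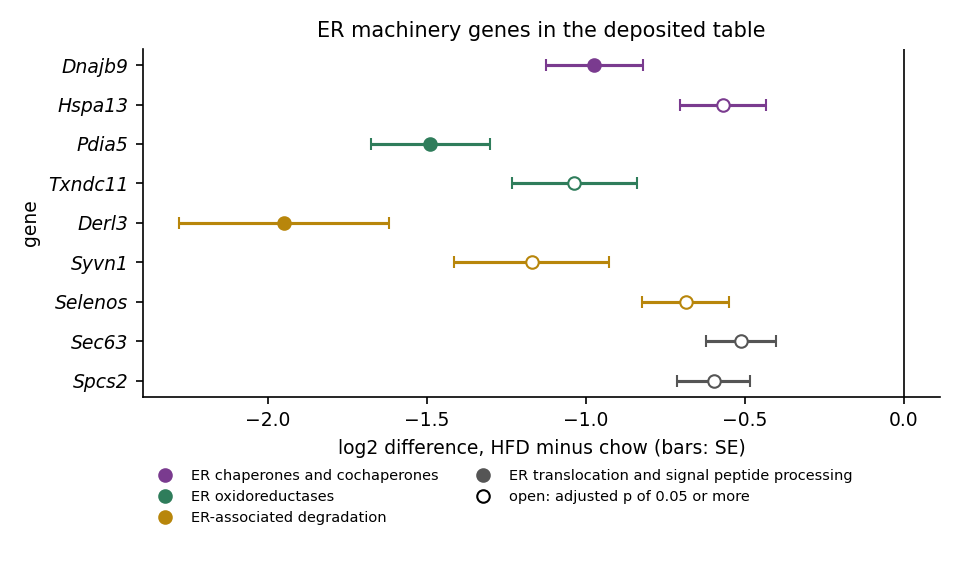
Log2 difference (HFD minus chow) of the 9 ER machinery genes in the deposited table, with the SE of the limma model as bars. Colours give the list of each gene, filled circles mark the 3 genes with an adjusted p under 0.05 (Dnajb9, Pdia5 and Derl3) and open circles the 6 that did not pass; all 9 lie below 0.

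The sensors and transcription factors of the response were absent from the table. None of the 11 listed genes, among them Ern1, Eif2ak3, Atf6, Atf4 and Xbp1, was in it, although all 11 were detected well above background on every HFD array. With 8.49% of detected named genes in the table, a count of 0 among 11 is near the background. Targets of the PERK and ATF4 branch lay on both sides: of 12, 4 were in the table and passed. Of the 13079 detected named genes, 267 were called higher and 184 lower. Asns, asparagine synthetase, was 14.8-fold lower in HFD, while Atf3 rose 4.59-fold, Vldlr 10.3-fold and the stress protein gene Nupr1 2.88-fold (adjusted p = 0.0393, 0.0471, 0.0255 and 0.0420 in limma). Without 1 sample these calls held in at most 1 of 7 fits. Atf3 also lost its call when only probes well above background on all HFD arrays were fitted (adjusted p = 0.0511 in limma). The whole table held 342 genes called higher and 270 called lower. With every column centred on its median over the table, which moves each log2 difference down by about 0.21, the split was 185 higher and 605 lower. Derl3 and Dnajb9 were lower under both, with log2 differences of -2.16 and -1.18 after centring.

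Markers of other cell types were read beside these differences, and their part in the result was not tested. No pancreatic acinar marker was in the table. Of 14, 4 were well above background on all 3 HFD arrays, and 8 on none, Cpa1, Prss1 and Pnlip among them. Of 11 plasma and B cell markers, 1 was in the table: Sdc1, a proteoglycan gene that hepatocytes express as well, had 11.90, 11.81 and 12.08 in HFD, against 12.66, 12.58, 12.80 and 13.02 in chow, and fell 1.78-fold in HFD (adjusted p = 0.0388 in limma). That call was lost without any 1 sample. Of the 11, 8 were well above background on all 3 HFD arrays, and 2, the plasma cell genes Tnfrsf17 and Irf4, on none. Of 19 hepatocyte markers 3 were in the table, all lower in HFD, namely Fga, Serpina1a and Cps1, and of these Serpina1a was called, though in 0 of the 7 fits without 1 sample (adjusted p 0.0659 to 0.177 in limma). All 5 stellate cell and fibroblast markers in the table, of 12 measured, were higher in HFD, with none called at an adjusted p under 0.05. Both macrophage markers in it, Itgam and Gpnmb of 14 measured, were called higher, and without 1 sample each call held in 1 of 7 fits. No endothelial or cholangiocyte marker was in it.

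For the genes without chow values, the HFD arrays give the spread between livers on 1 diet. A level here is the log2 of the background-subtracted signal minus the log2 of that array's 75th percentile, so 0 is the 75th percentile of the array. Levels of different probes are not compared. All 10 genes were well above background on all 3 HFD arrays.

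Among the chaperones, Hspa5, which encodes BiP, the main Hsp70 of the ER, had levels of 5.52, 5.45 and 5.99 in HFD replicates 1, 2 and 3. Hsp90b1, the ER form of Hsp90 known as GRP94, had 5.93, 5.92 and 6.23. Both were highest in replicate 3, by 0.51 and 0.31 over the mean of the other arrays. Hyou1, the nucleotide exchange factor of BiP, had -2.88, -3.17 and -2.02. Its SD of 0.60 was the largest of the 10 genes under this scaling, but under normexp background correction that of Xbp1 was larger (0.55, against 0.38 for Hyou1). Sdf2l1, which works with the cochaperone ERdj3, had 0.87, 0.68 and 1.44. For both, replicate 3 stood above the other arrays, which lay nearer to each other.

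The oxidoreductase gene Pdia4, which encodes ERp72, had 1.003, 0.897 and 1.296. Creld2, a secreted ER protein induced by ER stress, had 2.85, 2.99 and 3.81. Creld2 was the one gene of the 10 printed as several spots, of which 8 or 9 were usable on each HFD array, and the SD between these spots was 0.07 to 0.08. Replicate 3 exceeded the mean of the others by 0.89. Xbp1 had 5.14, 5.12 and 5.98. The probe's place relative to the intron that IRE1 removes is not given in the sources used here, so this is no measure of the spliced form.

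Herpud1, a partner of HRD1 in degradation that both ATF6 and the PERK branch can induce, ran the other way, with 5.27, 5.38 and 5.10 and its lowest level in replicate 3. Derl3 had 0.22, -0.50 and 0.53, and the brighter Dnajb9 probe had 1.17, 1.05 and 1.28, each highest in replicate 3 and lowest in replicate 2. The dimmer Dnajb9 probe, with -1.997, -1.71 and -1.68, was also highest in replicate 3 but lowest in replicate 1.

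HFD replicate 3 therefore had the highest level of 9 of the 10 genes, Herpud1 being the exception. Of all 17612 genes well above background on the 3 arrays, 38.5% were highest in replicate 3. The median of replicate 3 minus the mean of the others was 0.58 over the 10 genes and 0.03 over all genes. The median SD between the HFD arrays was 0.34 over the 10 genes and 0.17 over all genes. Without replicate 3 it was 0.0814 over the 10 genes, and no value over all genes was computed to set beside this. The count of 9 was the same under median scaling, quantile normalization, normexp background correction and the authors' own scale, under which 33.5% to 39.1% of all genes were highest in replicate 3. In the table, all 9 ER machinery genes had their highest HFD value in replicate 3, and so did 452 of the 687 genes that were lower in HFD (65.8%). Replicate 3 was thus the HFD sample nearest to chow for these 9 genes. With 3 HFD samples no test of this order was made.

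Other measures also differed between the HFD arrays, and their part in this order was not tested. The summed level of 12 stellate cell and fibroblast markers was 6.90, 6.80 and 6.45 in HFD replicates 1, 2 and 3, and that of 8 cholangiocyte markers was 3.13, 2.08 and 1.32. In the table, all 5 stellate cell and fibroblast markers had their lowest HFD value in replicate 3, and all 3 hepatocyte markers their highest. Both macrophage markers in the table were also lowest there, Gpnmb with 8.64, 7.84 and 5.95 and Itgam with 12.37, 12.12 and 12.04 in replicates 1, 2 and 3. The log2 sum of 14 macrophage markers was 6.98, 6.01 and 5.98, highest in replicate 1. For 19 hepatocyte markers it was 12.24, 12.73 and 12.67, and for 11 plasma and B cell markers 2.63, 2.43 and 2.68. Percentages of spots well above background were 57.0%, 62.3% and 66.8%.

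**Figure D4:**
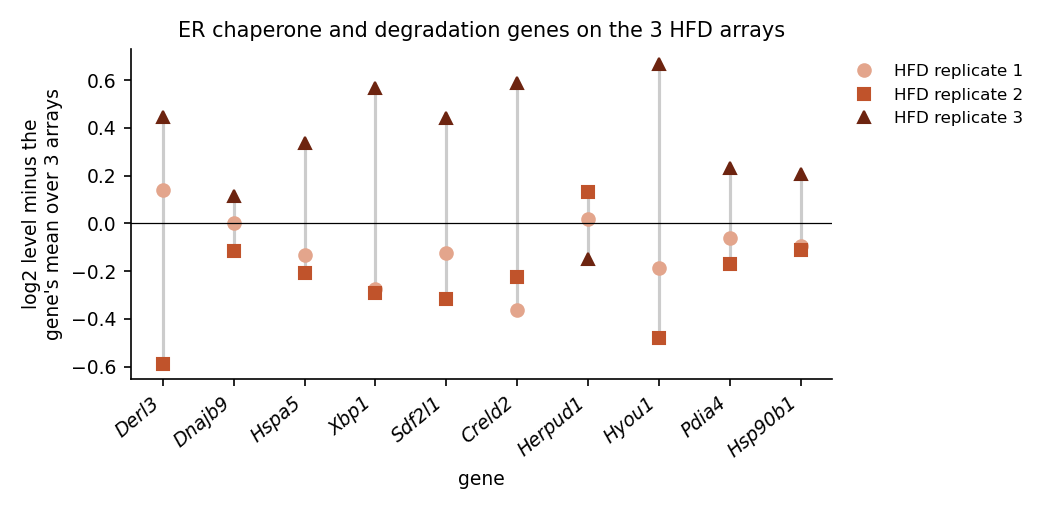
Levels of the 10 genes on the 3 HFD arrays, each as the log2 level minus the gene's own mean over the arrays. Points are single arrays and grey lines join the lowest and highest; HFD replicate 3 is the highest for every gene but Herpud1.

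The named genes of the table whose values most resembled those of Derl3 over the 7 samples were Zfp667, Kcp and Cpb2, with a Pearson r of 0.993, 0.993 and 0.990. For Dnajb9 they were C1rb, Gm4285 and Qpctl, with r of 0.995, 0.987 and 0.987. These correlations span both diets and share the diet difference on which the table was selected. All 6 of these genes were lower in HFD, by 0.56 to 0.95 on the log2 scale.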

How the data were processed

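Per the labels' protocols, 0.5 ug of liver RNA per sample was labelled with Cy3. Each deposited scanner file gives intensity values, background-subtracted by Agilent Feature Extraction 10.7.3.1 per the file headers (9.1 per the submitters' processing notes), with flags. The authors deposited a table of log2 values of 1615 probes, whose normalization, selection and centring no source used here gives. Its HFD columns followed the scanner signals, so their scale is log2; that of the chow columns could not be checked. Column medians were 9.68 to 9.85 in HFD and 9.55 to 9.56 in chow.

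Probes were named through RefSeq accessions (27228 of 39429), using a gene table of assembly GRCm38.p6 for names only. Control and outlier spots were left out, spots of a probe were averaged, and the probe with the highest mean stood for a gene. HFD minus chow was fitted with limma 3.58.1 (R 4.3.3). Variances were moderated toward a prior (0.0354, 2.10 degrees of freedom) from 19493 genes that 2 or more HFD arrays detected. In the limma adjustment, genes outside the table counted as not significant, and calls were made at an adjusted p under 0.05. The limma fit was also run on simulated data with variances drawn from the same prior, so that run does not test the prior. HFD values on the authors' scale were interpolated along the table's probes (median error 0.00103). The genes, lists and tests were chosen with earlier results of these data known. All 10 genes, pathway genes in the table and the 3 genes most like each table gene of the 10 were named by rule. ERSE genes beyond the 10, and markers, were named after their values were seen. Protein sequences were not used here.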

Additional observations from a re-analysis of the deposited data

How the results depend on the processing

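Derl3 and Dnajb9 were lower in HFD under every alternative run, which the groups that do not overlap fix in advance except with centred columns. They kept their calls with the table's own prior, with adjustment over the table alone, with the mean of a gene's probes, with centred columns and with probes well above background on all HFD arrays. Without 1 sample the log2 difference ranged from -2.18 to -1.65 for Derl3 and from -1.08 to -0.91 for Dnajb9, and 0 of the 2 was called in any of these limma fits, though both had an unadjusted p under 0.05. Without 1 sample the calls over the table numbered 0 to 453 (0 to 243 higher, 0 to 210 lower), and those among the 9 ER machinery genes 0 to 2, all in fits with fewer samples. All 1488 genes had an unadjusted p under 0.05 in each of them. The table's own prior gave 1026 calls (552 higher, 474 lower) and 7 of the 9 ER genes. Adjustment over the table alone gave 1488 (801 higher, 687 lower) and all 9. Centred columns gave 185 higher and 605 lower, and 8 of the 9. The numbers of the labels did not pair the samples: deviations of same-numbered samples correlated at -0.10, 0.14 and 0.03. With the replicate block, over 6 samples, limma called 0 genes (0 higher, 0 lower), 0 of the 9 ER genes and 0 of the 2, with log2 differences of -2.09 for Derl3 and -1.0 for Dnajb9 (adjusted p = 0.221 and 0.286). All 1488 had an unadjusted p under 0.05 there. The median SD of the 10 genes between HFD arrays was 0.0814 to 0.461 without 1 array. ERSE, ERSE-II and ACGTGG were held by 4, 1 and 3 genes also in the last 200 bases before the start. The authors' scale and the count for replicate 3 were chosen after seeing the data. Signal over background was no limit for the 10 genes on the HFD arrays, and could not be read for the chow columns.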

Other observations

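The scanner files labelled chow, which do not match the chow columns of the table, hold values of the ER genes that differ from those columns. For Derl3 the log2 signal in them was 6.94, 7.30, 7.17 and 7.64, where the chow columns give 12.39, 11.60, 11.60 and 11.29. For the 3 HFD samples the scanner log2 signal of Derl3 was 10.15, 9.06 and 10.24, close to the 9.91, 9.17 and 10.23 of the table. For the brighter Dnajb9 probe the files labelled chow gave 11.40, 11.51, 11.35 and 11.80, where the columns give 12.05, 12.05, 11.54 and 11.77. All 10 genes were well above background on the 4 arrays labelled chow. Relative to each array's 75th percentile, levels there were 5.07 to 5.19 for Hspa5, 4.75 to 4.80 for Hsp90b1 and 3.85 to 3.98 for Xbp1. Herpud1 had 2.01 to 2.12 and Creld2 2.86 to 2.99. The ranges were -0.70 to -0.58 for Sdf2l1, -0.48 to -0.14 for Pdia4 and -3.71 to -3.56 for Hyou1. No diet difference was computed from these files.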
